A study of Rattus norvegicus with 256 samples.

Results

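The brain was compared with the other 30 organs of the rat on whole-transcriptome arrays. Its 10 arrays are those labelled as brain, 5 from males and 5 from females, of 256 arrays over 31 organs in all. Han Wistar-derived rats of the strain AlpkHsdBrlHan:WIST gave every sample, none was treated, and their age is not given in the sources used here. Each array measured the total RNA of 1 organ of 1 animal, from a frozen piece of tissue, and the other organs had between 3 and 10 arrays each. The labels call the tissue normal brain and do not name a region, although pieces were meant to be cut at the same place in each animal and to stand for the whole organ.

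The brain holds neurons, which signal through synapses, and glia, which insulate, feed and defend them. At a synapse, a calcium-triggered fusion machine releases transmitter from vesicles onto receptors held by a scaffold in the facing membrane. Oligodendrocytes wrap axons in myelin, astrocytes clear transmitter and buffer potassium, microglia are the resident immune cells, and the endothelium of brain vessels forms a barrier to the blood.

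Each of the 31042 probesets, short sets of probes for a transcript, has a value on a log2 scale, on which a step of 1 is a 2-fold difference. A single gene symbol was attached to 20826 probesets, which cover 14217 genes, and none to 9780. A probeset was called expressed above the study's threshold, a signal of about 100.4 on the linear scale, and values near 2 are the floor, with no signal beyond background. Signals of probesets differ in brightness for reasons of probe chemistry, so that values are compared between organs within a probeset and never between genes. In a piece of tissue, fewer cells of a type and less RNA per cell cannot be told apart.

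The 10 brain arrays resembled each other (r between 0.960 and 0.991 across probesets) more than any resembled another organ (r up to 0.851), and no arrays of the series held identical values. The organ mean most like that of brain was the pituitary (r = 0.846), and the least like was the testes (r = 0.619). These correlations are across probesets, which are not independent replicates. On 4 arrays of aorta, heart and bone marrow, Xist and Eif2s3y were at odds with the labelled sex, and leaving these arrays out is among the alternatives.

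The tissue was checked first by the markers of neurons and of myelin. *Snap25* belongs to the machine that fuses synaptic vesicles with the surface membrane. Its values on the 10 brain arrays lay between 13.61 and 14.25, with a median of 14.00. On the 10 arrays of the pituitary, the highest of the other organs, it lay between 10.80 and 11.80 with a median of 11.22, so that the groups did not overlap. The brain mean of 13.96 ± 0.19 (SD over the 10 arrays, as for every level given with ±; n = 10) was higher than the mean of the other organs by 10.12 ± 0.22 (SE; limma, adjusted p = 6.63e-116) and above the pituitary by 2.75.

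*Mbp*, myelin basic protein, was measured by 3 probesets that differ widely. On 1 of them the brain arrays ran from 13.33 to 15.12 with a median of 14.72, whereas the aorta, next in order, ran from 5.44 to 6.81 with a median of 6.11. The margin over the aorta was 8.34. A further probeset gave a brain mean of 15.24 and a margin of 6.37 over the gastrocnemius muscle. On another, the brain mean was 9.19 and the aorta was higher, at 9.75. This last probeset has the highest mean over the organs and therefore stands for *Mbp* in the counts by list given further on.

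Of the other markers of brain cells, *Syt1*, *Nefl*, *Stmn2*, *Tubb3* and *Rbfox3* of neurons, *Mog* and *Mobp* of oligodendrocytes, and *Gfap*, *Aqp4* and *Aldoc* of astrocytes were each above every other organ. *Cnp*, an enzyme of myelin, was higher than the mean but its margin over the spleen was 0.95 on 1 probeset, and 1.39 on another that was called above every organ. *Slc1a2*, the main glutamate transporter of astrocytes, stayed under the threshold of expression, at 4.89 ± 1.44 on 1 probeset and 5.98 ± 0.89 on another. *Cx3cr1*, a receptor that defines microglia, was also below it, at 3.99 ± 0.76, while *P2ry12*, the purinergic receptor of microglia, reached 7.21 ± 0.63.

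Against the mean of the other 30 organ means, 3595 probesets were higher in brain (11.6% of those tested) and 2596 were lower (8.36%). A call required an adjusted p under 0.05 in limma, a difference above 1 on the log2 scale and expression in brain or over the other organs. Against each organ singly, 1026 probesets (3.31%) were above every other organ by more than 1, and 69 (0.222%) were below every other organ. The 2 rules were not alike. A call above required expression in brain only, whereas a call below required expression in each of the other 30 organs. Without the expression threshold the counts were 1479 above and 192 below. The comparisons with the mean and with the extremes use the same brain arrays. Among the 1026, the median margin over the highest other organ was 2.41, 247 had a margin above 4, and 562 were expressed in no other organ.

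For 833 of the 1026, every brain array was above each of the 246 arrays of other organs. Over all probesets this held for 1075 (3.46%), and over all genes, on the probeset that stands for each, for 459 (3.23%). Only the testes had more probesets above every other organ, 1601, and the liver came after the brain with 391. The pituitary was the next organ for 347 of the 1026 (33.8%), the pancreas for 109, the testes for 82 and the adrenal for 43. No gene symbol was attached to 343 of the 1026. Among genes with several probesets, 271 had at least 1 probeset above every organ. In 69 of these 271 all probesets were above every organ, and in 4 another probeset was lower in brain than the mean.

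**Figure D1:**
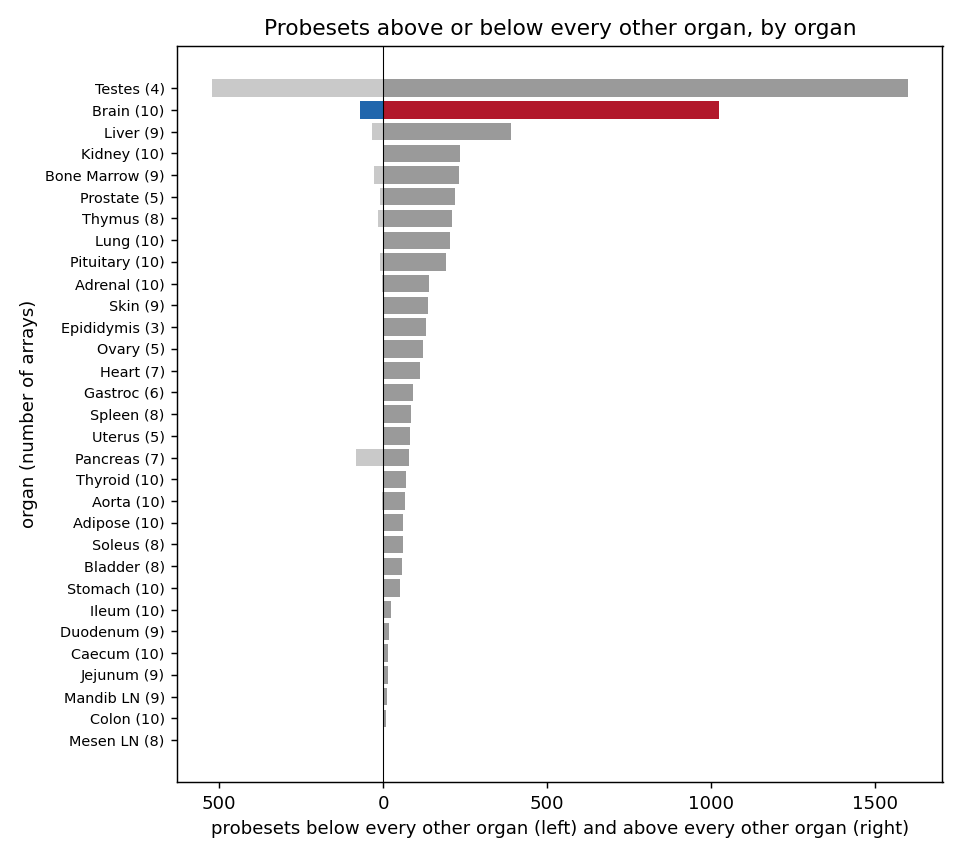
Number of probesets above every other organ (bars to the right) and below every other organ (bars to the left) for each of the 31 organs, with the number of arrays in parentheses and brain in colour. Brain, with 1026 above and 69 below, was second to the testes (1601) in the number above.

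The pooled fit takes its spread from all organs, and for a gene that is silent in most of them this spread can be smaller than that among brain arrays, so its p-values can be too small. With the spread of each organ taken from its own arrays, 890 of the 1026 remained above every other organ, whereas none of the 69 remained below. All 69 then had an unadjusted p under 0.05, with a lowest adjusted p of 0.155. Of the markers given before as above every organ, *Rbfox3* lost the call on 1 probeset with the own spread (adjusted p = 0.0598). Calls and counts by list in what follows still come from the pooled fit. They are to be read with the levels, SDs, margins and overlap of arrays given for named genes.

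**Figure D2:**
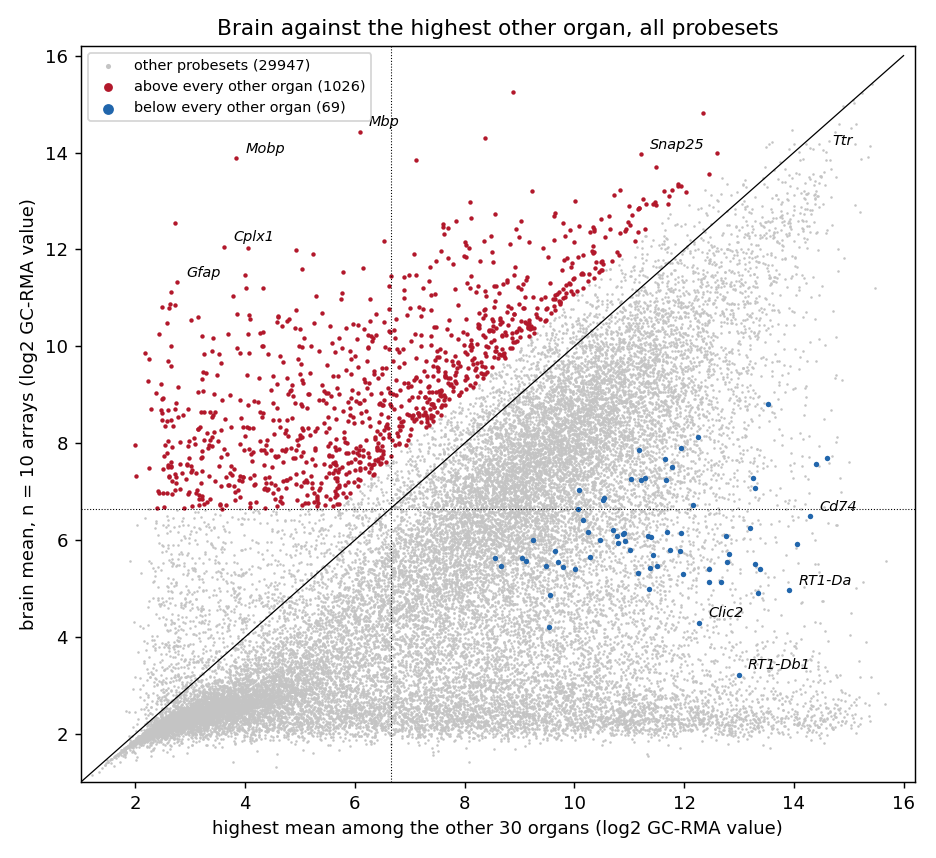
Brain mean (vertical axis, n = 10 arrays) against the highest mean among the other 30 organs (horizontal axis), both as log2 values, 1 point a probeset. Solid line, equal values; dotted lines, threshold of expression. The 1026 probesets above every other organ lie above the line, with *Mobp* and *Gfap* near the left edge where the other organs are at the floor.

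The largest margin belonged to *Mobp*, a structural protein of myelin made by oligodendrocytes. Its brain arrays lay between 13.26 and 14.27 (median 13.98), and the 4 arrays of testes, the next organ, between 3.17 and 4.35 (median 3.92). The mean of 13.88 ± 0.32 thus stood 10.04 above the testes (limma, adjusted p = 1.7e-163; 0.00214 with each organ's own spread). *Gfap*, the intermediate filament of astrocytes, came next, with brain arrays from 10.80 to 11.74 (median 11.40) and a margin of 8.56 over bone marrow. On 1 array of bone marrow *Gfap* reached 6.17, whereas the median of its 9 arrays was 2.02.

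Neuronal genes made up most of the next 18. *Slc17a7*, the vesicular transporter of glutamate, ran from 10.01 to 12.08 in brain (median 11.09) against 2.19 to 3.08 in the pituitary, a margin of 8.46. *Cplx1*, complexin 1, which clamps the fusion machine until calcium arrives, ran from 11.47 to 12.77 (median 12.05) and exceeded the testes by 8.43. *Gabbr2*, a subunit of the metabotropic GABA receptor, ran from 9.30 to 10.75 (median 10.26), with a margin of 7.83 over the pituitary, while another *Gabbr2* probeset read 5.74 in brain and more in the testes, at 6.69. On the probesets with these margins, none overlapped with any array of the next organ.

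The calcium sensors *Hpcal4* and *Hpca* had margins of 8.25 and 7.06. *Jph3*, which couples the endoplasmic reticulum to the surface membrane, had a margin of 7.70 and *Scn2a*, a sodium channel of axons, one of 7.35. *Ntrk2*, the receptor of brain-derived neurotrophic factor, exceeded the pancreas by 7.49 on 1 probeset, but on 3 others expressed in brain its margins were 1.09 and 0.68 over the uterus and 1.04 over the pituitary. *Slc12a5*, the chloride exporter on which inhibition by GABA depends, exceeded the pituitary by 7.06. *Kif5a*, a motor of axonal transport, exceeded the gastrocnemius by 6.68, and *Nrxn3*, a presynaptic adhesion protein, the pancreas by 6.66. *Lamp5*, *Cend1*, *Aak1*, *Faim2*, *Atp6v1g2* and the uncharacterised LOC100911992 completed the 20 with *Mbp*, the first 6 with margins between 6.88 and 8.12. In all 20, on the probeset with this margin, the lowest brain array was above the highest array of the next organ. Of 7 *Aak1* probesets, 2 were called above every organ, and the others read from 2.10 to 5.71 in brain. Another *Nrxn3* probeset read 5.26, under the threshold, and other *Hpcal4* probesets had margins of 2.43 and 2.30.

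**Figure D3:**
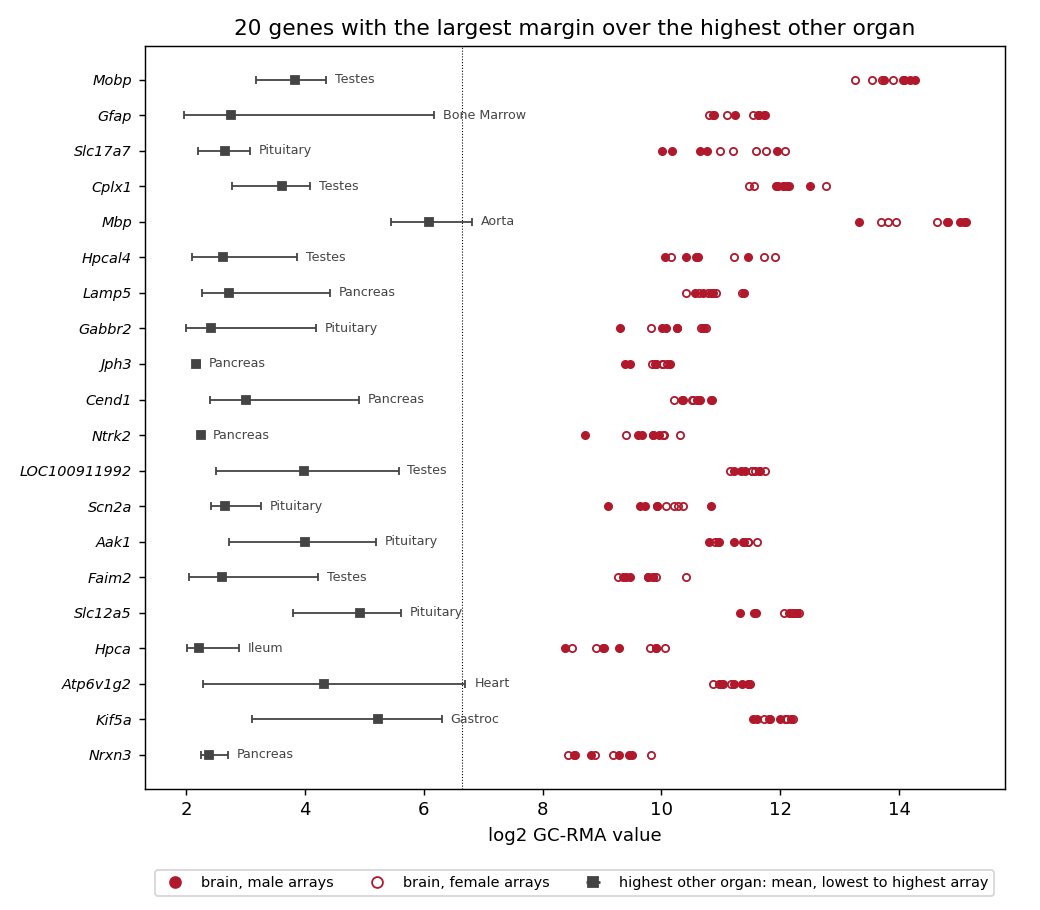
The 20 genes with the largest brain margin. Circles, the 10 brain arrays (filled, male; open, female); squares, mean of the highest other organ with its lowest and highest array. The horizontal axis is the log2 value and the dotted line the threshold of expression. For *Mobp* the brain arrays sit between 13.26 and 14.27 and those of the testes between 3.17 and 4.35.

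Gene lists for synapses, cell types and regions were then counted, with 1 probeset a gene. Over all 14217 genes, 3.21% were above every other organ, 13.4% higher than the mean, 13.2% lower and 0.387% below every organ, and the median difference from the other organs was -0.35. Of 30 measured genes of the synaptic vesicle, 21 were above every other organ and 23 higher than the mean, with a median difference of 5.86. They included the vesicle protein synapsin (*Syn1*, 11.21 ± 0.46; difference 8.41), synaptophysin (*Syp*, 11.62 ± 0.27; 6.91), the calcium sensor *Syt1* (10.37 ± 0.47; 7.90) and the active zone protein bassoon (*Bsn*, 9.51 ± 0.47; 5.85).

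In this list *Syt4* and *Rims1* were higher than the mean but not above every organ. *Syt4* stood at 10.71 ± 0.35 and was exceeded by the pituitary, at 12.01. *Pclo*, *Unc13a* and *Rph3a*, also of the active zone, had brain means between 3.71 and 4.22 and were not called. For several genes of known neuronal expression the probeset on this array thus read near the floor.

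Postsynaptic scaffold genes were higher than the mean in 13 of 21 and above every organ in 5, with a median difference of 2.26. Of 28 genes of glutamate receptors and transport, 12 were higher and 10 above every organ, with a median of 3.46. The AMPA receptor subunit *Gria2* ran from 10.87 to 12.25 in brain (median 11.64), 6.56 above the pituitary. The NMDA receptor subunit *Grin2b* (4.86 ± 1.46) and the metabotropic receptor *Grm5* (5.25 ± 1.03) were under the threshold.

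Among 25 genes of GABA and glycine signalling, 14 were higher than the mean and 13 above every organ, with a median difference of 4.40. *Gad1*, the enzyme that makes GABA, ran from 11.83 to 12.56 (median 12.23), and the pancreas, whose islets also make GABA, from 6.48 to 9.94 (median 8.32), so that the margin was 3.81. *Slc32a1*, the vesicular GABA transporter, stood at 8.62 ± 0.53 and no other organ exceeded 2.48. *Gabrb2*, a receptor subunit, had a margin of 3.89 over the heart.

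Of 39 monoamine and acetylcholine genes, 5 were expressed in brain, 3 were higher than the mean and 1 was above every organ. The last 2 shares, 7.69% and 2.56%, stand beside 13.4% and 3.21% over all genes. The median difference was 0.40. The gene above every organ was *Htr2c*, a serotonin receptor abundant in choroid plexus, at 10.60 ± 0.56 against 4.59 in the lung. The vesicular monoamine transporter *Slc18a2* (3.88 ± 1.07), the serotonin transporter *Slc6a4* (2.84 ± 1.00) and the choline acetyltransferase *Chat* (2.88 ± 0.58) were under the threshold in brain. The last 3 are known from small nuclei of the brainstem and basal forebrain.

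Of 43 voltage-gated channel genes, 23 were higher and 13 above every organ (median difference 3.42). *Kcnc1*, a potassium channel of fast-firing neurons, differed by 8.07 and *Scn1a*, a sodium channel, by 7.49. Calcium and G protein signalling of neurons had 32 of 41 genes higher and 19 above every organ (median 4.94). *Vsnl1*, a calcium sensor, ran from 12.85 to 13.38 in brain and exceeded the adrenal by 3.98. *Nrgn*, which binds calmodulin in dendrites, stood at 12.73 ± 0.78 against 8.56 in bone marrow.

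The cytoskeleton and axonal transport had 30 of 36 genes higher and 23 above every organ, with a median of 5.66. The neurofilament genes *Nefl*, *Nefm* and *Nefh* differed from the mean of the other organs by 8.41, 8.53 and 8.19. For the microtubule proteins *Map2*, *Mapt* and *Tubb3* the differences were 7.94, 6.66 and 6.56. Adhesion and perineuronal matrix had 22 of 38 higher and 14 above every organ (median 4.13). In that list the cell adhesion genes *Cntn1* and *L1cam* were above every organ, whereas the matrix genes *Acan*, *Ncan*, *Hapln1*, *Hapln2*, *Hapln4* and *Tnr* were under the threshold in brain.

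Genes listed with neuropeptides and granins were higher than the mean in 18 of 33 but above every organ in 4, with a median difference of 4.03. The 4 were *Cck*, *Tac1*, *Vgf* and *Nrn1*, the last of which, neuritin, is neither a neuropeptide nor a granin. Most of the rest were exceeded by an endocrine organ or the gut. *Scg5*, a chaperone of the prohormone convertase, stood at 13.12 ± 0.15 in brain and 13.67 in the pituitary. *Sst*, somatostatin, stood at 9.21 ± 0.31 in brain and 10.27 in the pancreas. *Vip* stood at 8.22 ± 0.69 in brain and 10.30 in the jejunum.

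Of 43 transcription factor genes of the brain, 18 were higher and 7 above every organ (median 2.31). *Olig1*, of oligodendrocytes, exceeded the bladder, next in order, with 10.82 ± 0.29 against 7.17. *Neurod6*, of pyramidal neurons, stood at 8.64 ± 0.55 and the pancreas at 3.19. *Olig2* and *Neurod2* read 3.10 and 2.51 in brain, under the threshold. Among 21 genes of neuronal RNA-binding proteins, 9 were higher, 4 above every organ and 2 lower, *Elavl1* and *Ptbp1*.

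**Figure D4:**
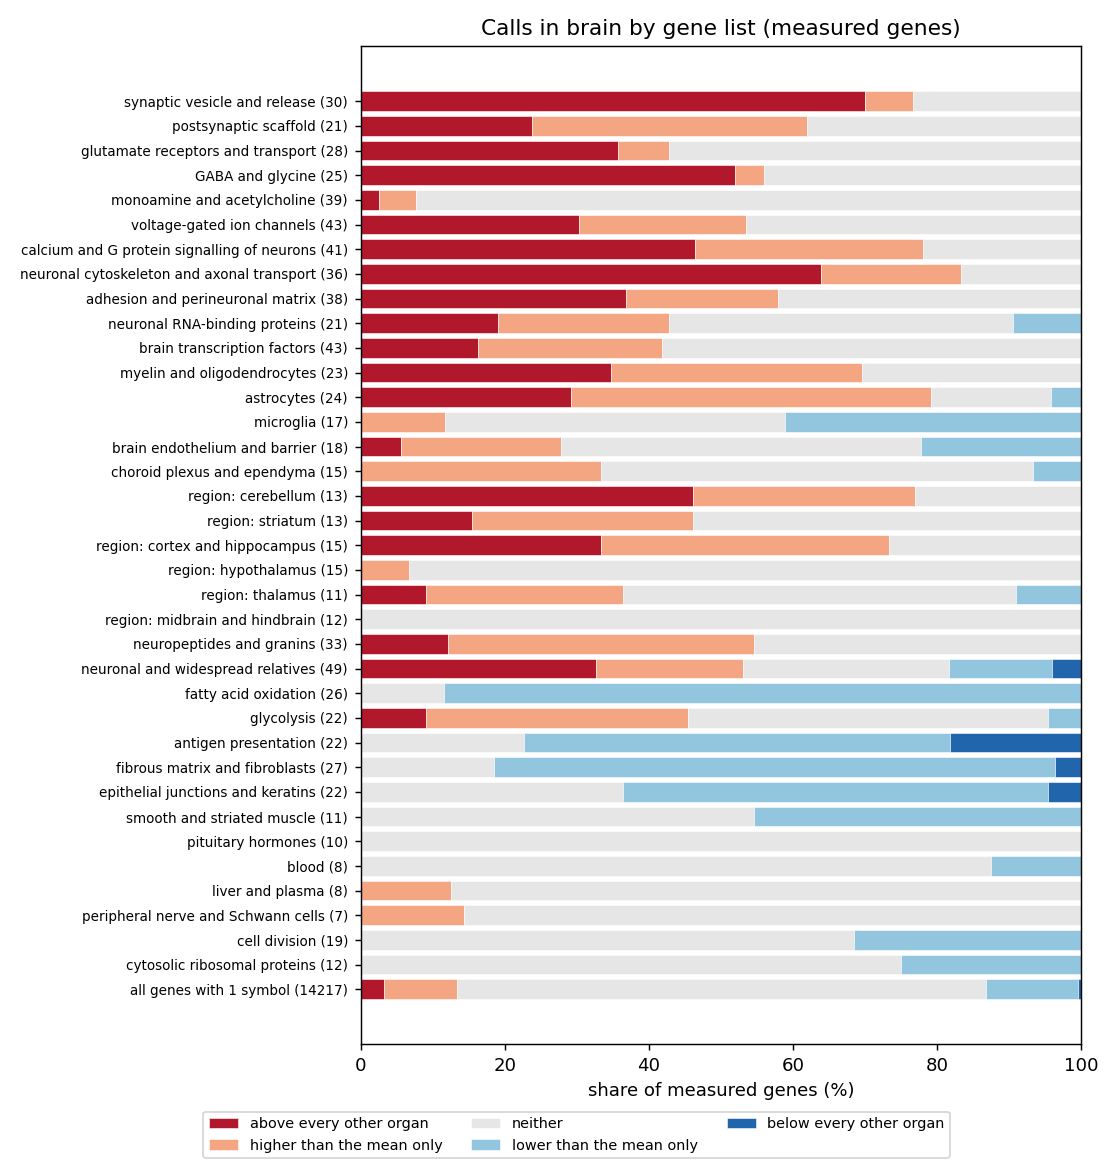
Share of the measured genes of each list, with their number in parentheses, that were above every other organ, higher than the mean only, neither, lower than the mean only or below every other organ. The bottom bar is all 14217 genes, with 3.21% above every organ. The synaptic vesicle (21 of 30) and cytoskeleton (23 of 36) lists have the longest bars at the left, and antigen presentation (4 of 22) at the right.

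Glial lists differed among themselves. Of 23 genes of myelin and oligodendrocytes, 16 were higher and 8 above every organ, with a median difference of 3.96. *Mag* and *Mog*, adhesion proteins of the myelin sheath, differed by 7.74 and 7.13, and *Opalin*, a membrane protein of its loops, by 6.44. Of 24 astrocyte genes, 19 were higher, 7 above every organ and 1 (*Vim*) lower, with a median of 3.41. The water channel *Aqp4*, at 12.16 ± 0.44, exceeded the gastrocnemius by 2.17, and *S100b*, a calcium-binding protein, lay close to adipose tissue, at 14.08 against 13.91.

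Of 17 microglial genes, 2 were higher (*P2ry12* and the protease *Ctss*) and 7 lower, with a median of -0.96. The complement genes *C1qa* and *C1qc* differed from the other organs by -1.03 and -2.65 and were highest in the spleen. Of 18 genes of brain endothelium, 5 were higher and 4 lower. *Slco1c1*, the thyroxine transporter of the barrier, was the only one above every organ, at 9.44 ± 0.27 against 3.29 in the pituitary. *Cldn5*, which seals its junctions, differed by 2.31 but was highest in the lung, at 12.95.

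Choroid plexus and ependyma gave 5 higher and 1 lower of 15. *Ttr*, the thyroxine carrier that choroid plexus secretes, ran from 13.21 to 14.48 (median 14.10), and the liver, its other source, from 14.34 to 14.74 (median 14.49). Their ranges overlapped. *Kl* was at the floor (2.10 ± 0.02) and *Folr1* stood at 5.42 ± 0.77. *Ptgds*, the prostaglandin D synthase of the meninges and choroid plexus, ran from 13.52 to 14.30 in brain and from 14.00 to 14.26 in the epididymis.

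Genes called below every other organ were few, under a rule that required expression in all the other organs, and several belonged to antigen presentation. *RT1-Db1*, a chain of the class II complex that shows antigen to helper T cells, ran from 2.49 to 4.65 in brain (median 3.05). Its lowest other organ was the prostate, with arrays from 4.65 to 9.42, so that the mean of 3.22 ± 0.62 was lower by 3.87 and the extremes touched. *RT1-Da*, another class II chain, was more variable, from 3.31 to 8.77 (median 4.71), and its highest array overlapped with the testes (7.00 to 7.72). *Cd74*, the class II invariant chain, ran from 5.38 to 8.92 (median 6.29) against 8.20 to 8.83 in the testes and likewise overlapped. The high values came from 1 array, brain male 1, which read 8.77 for *RT1-Da* and 8.92 for *Cd74*, whereas the other 9 arrays read at most 5.93 and 7.39.

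Of 22 measured antigen presentation genes, 17 were lower than the mean, 4 of them below every organ, and none was higher. Their median difference was -3.90. The immunoproteasome genes *Psmb8* and *Psmb9* differed by -5.76 and -5.33, and *B2m*, the light chain of class I, by -1.43 with a brain mean of 12.03 ± 0.26. *Ifitm3*, an antiviral membrane protein, stood at 7.07 ± 0.68 and was below every other organ. Outside this list, *Bst2*, another interferon-induced membrane protein, lay 2.19 below the colon.

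The rest of the 15 largest deficits were of varied function. *Clic2*, of the chloride channel-like proteins, ran from 3.51 to 5.53 in brain and from 6.86 to 8.11 in the prostate, without overlap. *Dnajc3*, a chaperone of the endoplasmic reticulum, ran from 5.01 to 6.29 and from 7.47 to 7.96 in the lung, also without overlap. *C1s*, a complement protease, was lower than bone marrow by 1.95, and *Pdlim1*, an actin-binding protein, lower than the adrenal by 1.85. *Npepl1*, *Mtfr1*, *Rassf3*, *Nfatc3*, *Gmfg* and *Cmtm6* had deficits between 1.77 and 2.59. *Tnpo1*, a nuclear import receptor, was low on 1 probeset (4.87, deficit 2.15), but another read 8.83 in brain, near the mean of 9.45 for the other organs.

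The 69 probesets below every organ had a median deficit of 1.45, and 44 of them had no overlap of arrays. Every brain array was below all others for 135 probesets (0.435%) and 107 genes (0.753%) of the whole array. Among genes with several probesets, 26 had at least 1 probeset below every organ, and in 12 of them all were lower in brain.

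Lists of other tissues varied. Fibrous matrix had 22 of 27 genes lower (median -3.84), epithelial junctions and keratins 14 of 22 (median -4.01) and muscle 5 of 11 (median -3.06), with none higher. Collagen *Col1a1* stood at 6.99 ± 1.36 in brain, a difference of -4.40, and the adhesion protein *Epcam*, near the floor in brain at 3.09, differed by -6.20. *Anxa1*, an annexin of epithelia and neutrophils, was below every other organ without overlap. Of 19 cell division genes, 6 were called lower (median -3.26), and 3 of 12 ribosomal protein genes (median -0.80). A call also required expression in brain or over the other organs. In all 19 cell division genes the difference was -1.22 or lower, and in all 22 of the epithelial list -1.79 or lower. Blood genes gave 1 lower of 8, liver and plasma genes 1 higher of 8 (*Ttr*) and peripheral nerve genes 1 higher of 7 (*Egr2*). The 5 sex chromosome genes gave 2 lower.

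Fuel genes differed by pathway. Of 26 genes of fatty acid oxidation, 23 were lower, none was higher and the median was -2.09. The acyl-CoA dehydrogenases *Acadm* and *Acadl* differed by -3.04 and -3.18, and *Cd36*, which takes up fatty acids, by -6.50. Of 22 glycolysis genes, 10 were higher, 2 above every organ and 1 lower, with a median of 0.87. The neuronal and astrocytic isozymes enolase 2 (*Eno2*, 12.34 ± 0.28) and aldolase C (*Aldoc*, 13.12 ± 0.29) were above every organ, whereas the muscle enolase *Eno3* differed by -2.85.

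Members of the same protein family often went opposite ways. *Snap25* was above every organ, and *Snap23*, its counterpart in other cells, below every organ, at 6.41 ± 0.23, a difference of -2.66 from their mean. The chromatin remodelling subunit of neurons *Actl6b* differed by 5.30, whereas *Actl6a*, which it replaces as neurons mature, was below every organ (6.17 ± 0.24; difference -2.52). For both *Snap23* and *Actl6a* every brain array was below every other array.

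Likewise *Elavl4*, an RNA-binding protein of neurons, differed by 6.74 and the widespread *Elavl1* by -2.73, and *Stx1a* by 6.88 and *Stx4*, syntaxins of the surface membrane, by -1.03. The vesicle proteins *Vamp2* and *Vamp8* differed by 3.97 and -3.12, and the GTPases *Rab3a* and *Rab3d* by 5.87 and -2.35. *Ap3b2* and *Ap3b1*, adaptor subunits, differed by 6.17 and -1.87. Of 49 measured genes in this list of relatives, 26 were higher, 16 above every organ, 9 lower and 2 below every organ. The list pairs neuronal members with their relatives by choice, so the split was partly built in. *Kif5b*, *Dync1i2* and *Eno1*, relatives of *Kif5a*, *Dync1i1* and *Eno2*, differed by 0.36, 0.57 and 0.68 and were not called.

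Probesets of 1 gene could also disagree. In 18 genes, 1 probeset was higher and another lower in brain, against 113 genes in the testes and a median of 1.5 over the other 30 organs. *Tpm1*, tropomyosin 1, had a probeset at 7.59 ± 0.74 in brain, with a difference of 3.92, and others with differences of -1.66 and -1.58. *Tpm3* had a probeset with a difference of 4.01 and 6 that were lower. *Araf*, a kinase, read 3.40 ± 0.41 on 1 probeset and 8.74 ± 0.58 on another, with differences from the other organs of -3.70 and 2.40. These genes were chosen after their values were seen, and which transcripts their probes reach was not analysed here.

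Against the pituitary alone, 3185 probesets were higher in brain (10.3%) and 2939 lower (9.47%). *Mbp*, *Mobp* and *Ttr* had the widest differences upward among named genes, with *Ttr* at 14.04 in brain and 3.41 in the pituitary. The pituitary hormone genes *Gh1* and *Prl* were at the floor on the brain arrays (2.02 ± 0.02 and 2.27 ± 0.03) and at 15.14 and 15.38 in the pituitary. Of the 10 measured genes of pituitary hormones and their regulators, none was called higher or lower in brain than the mean of the organs. *Gria2*, *Gad1* and *Slc12a5* differed from the pituitary by 6.56, 9.77 and 7.06, whereas *Olfm1*, a secreted protein of neurons, differed by 1.15.

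Of the 3595 probesets higher than the mean, 1775 were still higher in another organ, most often the pituitary (242), the testes (214), the gastrocnemius (117), the heart (100) and the thymus (84). *Ryr2*, the calcium release channel, stood at 9.96 ± 0.30 in brain and 12.75 in the heart, and *Pvalb*, parvalbumin, at 10.80 ± 1.02 in brain and 13.91 in the gastrocnemius. *Eef1a2*, an elongation factor of nerve and muscle, read 12.66 in the gastrocnemius and less in brain. *Rbfox1*, a splicing factor of both, stood at 11.13 ± 0.50 in brain and 11.28 in the gastrocnemius on 1 probeset, with overlapping ranges. The order depended on the *Rbfox1* probeset. On others the brain was above the gastrocnemius, by 0.23 and 0.21, and on another it read 2.09 against 9.15. With the testes the shared genes included *Cacna2d3*, a calcium channel subunit (9.84 ± 0.56; testes 11.29), and *Ctnna2*, a neuronal catenin (8.92 ± 0.20; testes 10.23).

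Promoters were read for the genes above every other organ, since neuronal genes are known to carry the RE1 element, to which the repressor REST binds outside neurons, and the cAMP response element, bound by CREB. Windows around the start of the gene, from RefSeq on build GRCr8, were at hand for 418 of 548 genes, and the first window listed was taken for each. The RE1 core, CAGCACC followed after 2 bases of any kind by GGACAG, on either strand was found in 3 of the 418 (0.718%). It was found in 10 of 27457 windows of all genes (0.0364%) and in 5 of 11700 windows of genes on the array (0.0427%). None of 51 windows for genes below every organ held it. The full element TGACGTCA, which reads the same on both strands, was found in 24 of the 418 (5.74%). It was found in 525 of 27457 windows of all genes (1.91%), in 334 of 11700 windows of genes on the array (2.85%) and in none of the 51. A match is a description and not a shown site.

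The 3 windows with the RE1 core are given because they are all that the search found in these genes, and capitals mark the match. *Ttc9b* (chr1:92080776-92081075, plus strand) stood at 9.02 ± 0.28 in brain, 5.58 above the testes. *Fam163b* (chr3:30864481-30864780, minus strand) stood at 8.04 ± 0.44, 3.77 above the pancreas, and *Hrh3*, the presynaptic histamine receptor (chr3:187574210-187574509, minus strand), at 7.60 ± 0.73, 1.51 above the aorta. None of the 3 was expressed in another organ.
Ttc9b: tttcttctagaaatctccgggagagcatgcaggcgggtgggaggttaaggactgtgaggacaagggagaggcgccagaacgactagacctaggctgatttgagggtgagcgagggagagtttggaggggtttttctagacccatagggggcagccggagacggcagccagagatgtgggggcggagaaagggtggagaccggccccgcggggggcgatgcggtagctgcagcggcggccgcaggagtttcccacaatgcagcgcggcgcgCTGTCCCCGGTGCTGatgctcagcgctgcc
Fam163b: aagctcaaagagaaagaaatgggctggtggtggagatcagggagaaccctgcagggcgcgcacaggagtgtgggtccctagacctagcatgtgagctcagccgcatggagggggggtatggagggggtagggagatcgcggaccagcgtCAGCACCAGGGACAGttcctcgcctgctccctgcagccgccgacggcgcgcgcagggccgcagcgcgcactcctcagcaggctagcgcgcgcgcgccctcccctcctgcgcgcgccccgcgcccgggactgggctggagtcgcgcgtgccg
Hrh3: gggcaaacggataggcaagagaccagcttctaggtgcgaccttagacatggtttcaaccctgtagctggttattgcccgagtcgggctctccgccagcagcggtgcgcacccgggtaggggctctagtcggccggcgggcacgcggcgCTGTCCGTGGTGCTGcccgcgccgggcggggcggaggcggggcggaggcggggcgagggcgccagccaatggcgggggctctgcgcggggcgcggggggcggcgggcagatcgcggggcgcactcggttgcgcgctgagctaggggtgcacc

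A pair of windows with the cAMP response element, in capitals, is given for a secreted peptide and a vesicle protein described above. *Vgf*, a peptide precursor of neurons (chr12:25276971-25277270, minus strand), stood at 9.05 ± 0.69, 2.42 above the pituitary, and *Syn1* (chrX:3725495-3725794, plus strand) 3.96 above the prostate. These genes were chosen after the matches were seen. *Rest* itself read near the floor in brain (2.68 ± 0.06) and in every other organ (highest, adrenal 3.59). A probeset near the floor in every organ cannot show where *Rest* is expressed or absent.
Vgf: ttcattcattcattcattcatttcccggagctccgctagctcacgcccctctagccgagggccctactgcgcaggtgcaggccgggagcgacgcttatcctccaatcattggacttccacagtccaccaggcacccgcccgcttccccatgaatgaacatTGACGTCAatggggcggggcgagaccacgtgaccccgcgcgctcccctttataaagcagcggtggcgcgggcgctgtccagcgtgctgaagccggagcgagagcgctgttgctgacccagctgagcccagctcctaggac
Syn1: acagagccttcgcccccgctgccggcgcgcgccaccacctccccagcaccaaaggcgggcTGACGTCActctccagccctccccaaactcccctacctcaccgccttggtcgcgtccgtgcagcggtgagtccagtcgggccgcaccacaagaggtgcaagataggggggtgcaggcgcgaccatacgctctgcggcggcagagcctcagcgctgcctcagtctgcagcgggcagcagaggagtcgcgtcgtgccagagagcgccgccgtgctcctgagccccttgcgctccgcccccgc

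Lists of brain regions also differed. Of 13 cerebellar genes, 10 were higher than the mean and 6 above every organ (median difference 5.42), and of 15 genes of cortex and hippocampus 11 and 5 (median 3.15). Every brain array was above every other array for 3 of the 13 and 5 of the 15, and for 3.23% of all genes. Striatal genes were higher in 6 of 13 (median 2.98) and thalamic genes in 4 of 11 (median 0.41). Of 15 hypothalamic genes 1 was higher (*Hap1*), and of 12 genes of midbrain and hindbrain none was called. *Nptx1*, a pentraxin of excitatory synapses, ran from 11.33 to 12.86 and exceeded the epididymis by 4.06.

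The brain arrays were not alike in every gene. Over the 9739 probesets expressed in brain the median SD among the 10 arrays was 0.28, but it was above 1 for 149 (1.53%) and above 2 for 17. The widest spread belonged to genes of cerebellar neurons. *Gabra6*, the GABA receptor subunit of granule cells, read between 11.33 and 12.67 on males 2 to 5 and females 1 and 2, and at most 4.59 on male 1 and females 3, 4 and 5. Its mean of 8.63 ± 4.47 therefore describes no array, and its call above every organ was lost with each organ's own spread (adjusted p = 0.184).

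The same arrays stood apart for *Pcp2* and *Car8*, of Purkinje cells, *Cbln1* and *Neurod1*, of granule cells, and the transcription factors *En2* and *Zic1*. *Pcp2* read from 10.70 to 12.20 on the first 6 arrays and from 2.78 to 3.84 on the other 4. With each organ's own spread, *Pcp2* and *Neurod1* also lost their calls above every organ (adjusted p = 0.200 and 0.956). Of the 13 measured cerebellar genes, 11 or 12 were expressed on each of those 6 arrays and 5 on each of the other 4. Those 6 arrays came from 4 of 5 males and 2 of 5 females, so in this set cerebellar content and sex were not balanced.

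Hypothalamic genes varied as well. *Pmch*, the precursor of melanin-concentrating hormone, read 9.76, 9.86 and 10.26 on males 2, 4 and 5, 9.29 and 9.10 on females 1 and 2, and from 2.08 to 2.28 on the other 5 arrays. *Oxt*, oxytocin, read between 6.08 and 9.13 on the same 5 arrays and *Avp*, vasopressin, between 5.76 and 7.96, with at most 2.10 and 2.34 elsewhere. Male 3 was thus high in cerebellar but not in hypothalamic genes.

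The dopamine genes *Th* and *Slc6a3* followed *Pmch* at low levels, up to 5.76 and 5.16. *Tbr1*, of cortical projection neurons, tended the other way, with 5.84, 6.82 and 7.37 on females 3, 4 and 5 and between 2.32 and 5.40 on the others. *Spp1*, osteopontin, read 8.92 to 9.51 on males 1, 2, 4 and 5 and females 1 and 2, and 2.68 to 4.23 on the other 4. Broad markers varied less than these, though not equally. On the probeset with the largest margin, the SD was 0.19 for *Snap25*, 0.32 for *Mobp*, 0.38 for *Gfap* and 0.66 for *Mbp*. It was 0.55 and 0.50 on the other *Mobp* probesets, and 0.20 and 0.60 on the other *Mbp* probesets. The mean over the 23 genes of myelin and oligodendrocytes ran from 8.36 to 9.21.

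**Figure D5:**
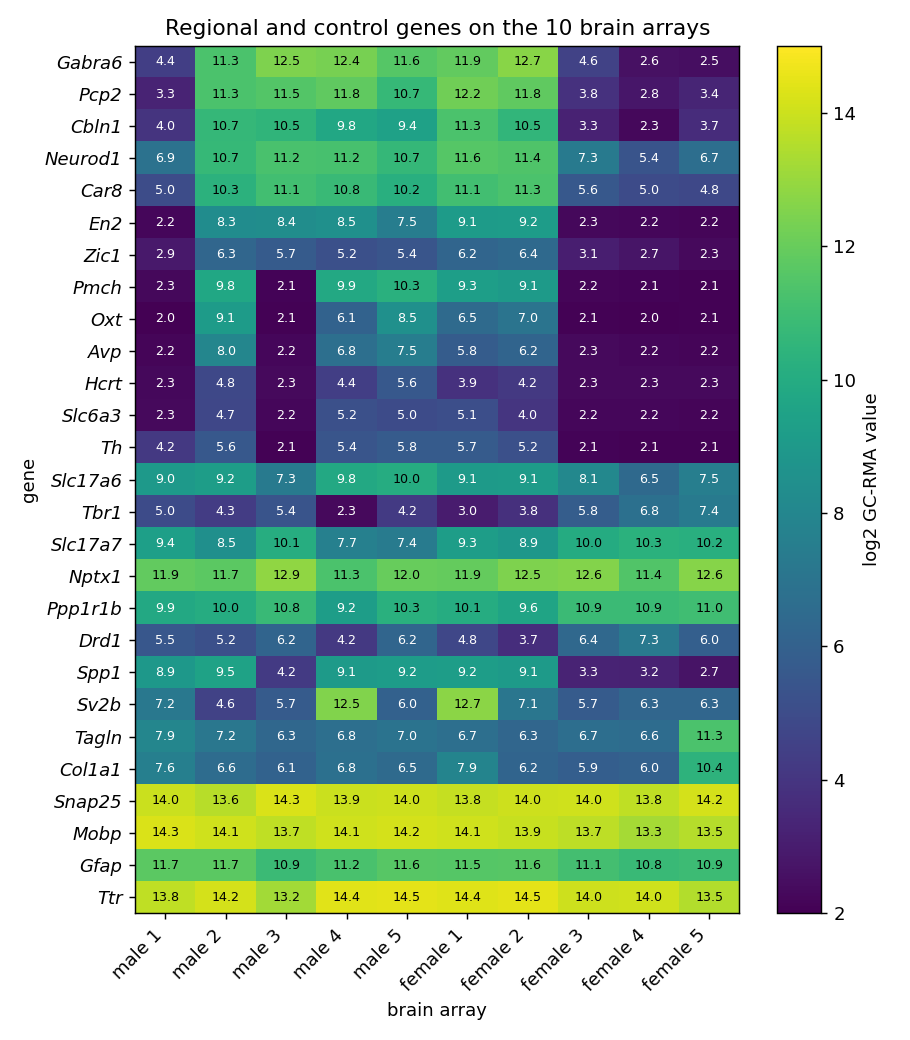
Log2 values of 27 genes (rows) on each of the 10 brain arrays (columns), printed in each cell and coloured from low (dark) to high (bright). *Gabra6*, *Pcp2* and *Cbln1* are high on 6 arrays and low on male 1 and females 3, 4 and 5, *Pmch* is high on 5, and *Snap25*, *Mobp* and *Gfap* each stay within about 1 log2 unit. *Slc17a7* is shown on the probeset with the highest mean over organs, not the one with the largest margin.

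Genes of other tissues were high on single arrays. Female 5 read 11.33 for *Tagln*, of smooth muscle, and 10.38 for *Col1a1*, against at most 7.95 and 7.87 on the others, and its mean over 11 muscle genes was 6.21 against 3.74 to 4.19. *Cga*, the common subunit of pituitary glycoprotein hormones, read 8.29 on male 2 and 7.09 on male 5, 4.76 on female 2 and at most 2.59 elsewhere, and *Tshb* read 6.24 and 5.53 on males 2 and 5. *Gh1* and *Prl* stayed at the floor on all 10 arrays. The part of such signals in the results was not tested beyond leaving out arrays.

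Leaving out female 5, the 4 arrays low in cerebellar genes or the 6 high ones left 994 to 1147 probesets above every other organ and 68 to 81 below, and moved no count against the mean or the pituitary by as much as 1.5 times. For single genes it did matter. Without the 6 high arrays, *Car8* differed from the other organs by -0.02 in place of 3.40 and *Spp1* by -0.81, where the value over all 10 arrays was positive.

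Between the sexes, with 5 brain arrays each, 1 probeset was higher in males (0.00322% of those tested) and 4 were higher in females (0.0129%). The first was *Eif2s3y*, a translation factor on the Y chromosome, with means of 9.73 in males and 2.69 in females (adjusted p = 4.79e-06, limma). Of the 4, 3 belonged to *Xist*, the RNA that silences an X chromosome, and 1 had no gene symbol. At an unadjusted p under 0.05 there were 1450 probesets. No gene of the synaptic, glial or regional lists was called between the sexes, which does not show that they were equal, and regional content differed between arrays as described.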

How the data were processed

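RNA of 31 organs was hybridised to RAE230_2 arrays. The authors removed arrays that failed quality control, summarised probesets with GCRMA and deposited log2 values, and no log was taken again. No source names its version, or says which arrays were normalized together. Such processing pulls low signals to a common floor, and the number of arrays limits the precision. Groups and numbers came from the labels.

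Organ means were fitted in limma (3.58.1; R 4.3.3) over all 256 arrays, each organ counting once. P-values were adjusted by Benjamini-Hochberg over 31042 probesets. Calls required a difference above 1 and a mean above 6.65, as in the methods. For above every organ this was the brain mean, and for below every organ each of the other 30 organ means. Above or below every organ means that the largest of 30 one-sided p-values passed. Sexes were compared on brain arrays alone. Scripts were tested on simulated data.

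The members and lists were chosen with earlier results of these data known. Named genes were those of the lists, the 20 largest margins upward and 15 downward, the 10 largest differences from the mean, the 10 largest SDs, sex calls, and 3 genes for each of 5 organs that exceed the brain; single exceptions are stated. In lists, the probeset with the highest mean over organs stands for a gene. Alternatives covered normalization, thresholds, organs, sexes, spread, a replicate block by animal and each array left out. Equal numbers mark the same animal, since the methods name 5 male and 5 female rats and the supplement lists animal numbers. For 4 organs (pituitary, adrenal, ovary and bone marrow) its sample numbers differ, so whether they share those animals is uncertain, and the block took them as other animals. Same-numbered arrays of brain and another organ had median correlations of deviations between -0.05 and 0.23 by organ, with some pairs below 0.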

Additional observations from a re-analysis of the deposited data

Results flagged for a closer look

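Of 202 sets of 5 brain arrays, of 1 sex and 1 named gene each, 15 held an array far from the other 4. Chance gives about 1 such set in 20 where sets are independent and not chosen by their spread. Here the sets share arrays, and the genes include the 10 with the largest SD over these arrays. That rate therefore does not apply, and the 15 are a description. Male 1 stood apart in 6: *Gabra6* read 4.41 there (others 11.33 to 12.49), *Pcp2* 3.30 (10.70 to 11.82), *Cbln1* 3.95 (9.42 to 10.65), *Car8* 5.01 (10.23 to 11.06), *Neurod1* 6.88 (10.66 to 11.25) and *Pvalb* 9.79 (11.46 to 11.92), all genes of cerebellar neurons. Females 3, 4 and 5 were low for the same genes but are 3 of 5 in their sex. Male 3 read 13.33 for *Mbp* on 1 probeset (others 14.82 to 15.12) and 4.23 for *Spp1* (8.92 to 9.51). Another *Mbp* probeset, with a brain mean of 15.24, had an SD of only 0.20 over the 10 arrays.

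The other arrays that stood apart were male 2 for *Ntrk2* (8.72, others 9.60 to 9.96) and *Nefl* (11.50, others 12.25 to 12.48), and male 4 for *Tmem130* (11.77, others 11.40 to 11.47). Among females they were female 1 for *Sv2b* (12.72, others 5.72 to 7.09), female 2 for *Cga* (4.76, others 1.77 to 1.80), female 3 for *Pecam1* (4.74, others 4.15 to 4.29) and female 4 for *Alb* (7.76, others 4.79 to 5.56).

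The sex difference of *Xist* was smaller in brain than over the other organs of both sexes on 2 probesets. Male minus female was nearer to 0 by 1.08 and 0.92 on the log2 scale, each with an adjusted p under the threshold in limma with a separate spread per group.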

How the results depend on the processing

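Counts were recomputed under each alternative. Asking for a log2 difference above 2 gave 2384 probesets higher and 1100 lower than the mean, 608 above and 8 below every organ, and 1835 higher and 1178 lower than the pituitary. Without the expression threshold there were 5691 lower than the mean, 192 below every organ, and 5132 higher and 4531 lower than the pituitary. The 69 below every organ became 111 with arrays centred on their medians, 153 on female arrays, 143 with somatic organs only and 0 with each organ's own spread. The sex comparison from 1 fit over all arrays gave 41 higher in males and 26 in females. The own spread, and leaving out female 5 or the arrays low or high in cerebellar genes, were chosen after seeing the data. Other alternatives kept the counts within 1.5 times.

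Leaving out each brain array in turn gave 1011 to 1043 above every organ, 66 to 72 below, 3572 to 3630 higher and 2574 to 2642 lower than the mean, 3171 to 3210 higher and 2894 to 2962 lower than the pituitary, and for sex 1 in males and 4 to 5 in females. With animals as a replicate block (correlation 0.0177) the counts were 3596, 2596, 1027, 69, 3185 and 2939, so the block changed no count by more than 1. No paired analysis was possible between the sexes because each animal gave 1 brain array.

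Of 2349 recomputed values for 87 named genes, 2256 kept direction and call, 53 lost the call, 21 gained it and 19 reversed. Without the 6 arrays high in cerebellar genes, *Spp1* was -0.81, *Car8* -0.021, *Sv2b* -0.18, *Patj* -1.20 and *Cga* -0.26. *Folr1* was 0.062 on males, 0.26 with somatic organs and 1.10 against the median. *Alb* was 0.88 against the median and between -0.364 and 0.0022 with single arrays left out. *Acta1* was -0.043 after quantile normalization, -0.25 centred, -0.048 without the pituitary, -0.29 without the 4 arrays low in cerebellar genes, -0.051 without female 5, and -0.070 to 0.106 with single arrays left out. *Folr1*, *Alb* and *Acta1* were not called. The cause was not tested. Centring moved the median difference over all probesets from -0.17 to -0.43, and higher calls from 58.1% of calls to 48.2%. Signal near the floor limits what these arrays show.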

Other observations

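Among the brain arrays, 3 probesets had a value in 1 or 2 animals that stood far from the rest, and the arrays of the same number were followed through the other organs. The probesets were chosen after their values were seen. The adrenal, bone marrow, pituitary and ovary are given apart, since it is uncertain whether they come from the same animals. *Ythdf2*, which binds methylated RNA, read 4.80 in the brain of female 2 and 7.57 to 9.96 in the others. In 18 of 22 other organs of female 2 it was more than 1 log2 unit below the organ's mean, with a median deviation of -2.37. Of the 4 organs given apart, 2 were more than 1 below, with a median of -1.45. Arrays numbered female 4 and male 3 had medians of -2.12 and -1.40 in the organs given apart, and of -0.47 and 0.91 in the others.

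*Sgcb*, a sarcoglycan of the muscle membrane, read 4.73 in the brain of male 5 and 7.23 to 9.30 in the others. It was more than 1 below the organ mean in 18 of 21 other organs of male 5, with a median of -3.11. Over the 3 organs given apart the median was -0.23, with the pituitary alone low at -3.52. In the heart the deviation was 0.41. The heart array labelled male 5 is among the 4 whose *Xist* and *Eif2s3y* went against the labelled sex.

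*Sv2b*, a synaptic vesicle protein, read 12.53 in male 4 and 12.72 in female 1 on 1 probeset and between 4.56 and 7.18 on the other 8 brain arrays. In female 1 it was more than 1 above the mean in 17 of 20 other organs (median 1.74) and in none of the 3 given apart (median -0.25). In male 4 it was so in 2 of 20. Another *Sv2b* probeset varied little over the brain arrays, at 10.17 ± 0.52, and 4.45 above the soleus.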
